A study of Mus musculus with 9 samples.

Results

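The comparison described here is that of mouse lung cancer cells after contact with Th17 cells and the same cells after contact with Th0 cells. LLC1 (Lewis lung carcinoma) is a transplantable mouse lung tumour line that is used as a model of tumour growth and spread. It was kept in direct contact with CD4+ T helper cells at a 1:1 ratio for 24 h, the CD4+ cells were sorted away, and total RNA was taken from the cancer cells that remained. The members were chosen by their labels: 3 libraries of LLC1 with Th17 cells and 3 libraries of LLC1 with Th0 cells, 6 of the 9 libraries of the series. Both groups therefore carry T cell contact, and neither holds LLC1 cells grown alone. The labels call the T cells artificially generated subsets. They give neither the cytokines used nor the age or strain of the mice, and they do not say whether the libraries came from separate cultures, so that p-values measure only the spread between these libraries. The table lists 18511 genes, and 14342 had a mean of at least 10 normalized counts (reads divided by 1 size factor per library) over the 6 libraries and were tested. The remaining 4169 were not tested. A gene that is not listed has no value here, and its absence does not show that it was not expressed.

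Th17 cells are CD4+ T helper cells that arise under TGF-beta and IL-6, use the transcription factor RORgammat and secrete IL-17A and IL-17F. IL-17 binds a receptor of the chains IL17RA and IL17RC on epithelial and stromal cells and activates NF-kB and C/EBP factors, which raise chemokines, Lcn2 and matrix metalloproteinases. Th0 cells are activated T helper cells that were not driven into a lineage. In epithelial-mesenchymal transition, or EMT, factors of the Snail, Twist and Zeb families lower E-cadherin and keratins and raise vimentin, N-cadherin and fibronectin. The study's title names this transition in lung cancer cells exposed to Th9 or Th17 lymphocytes as its subject.

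The 6 libraries held about 12719650 to 17505512 reads. Th0 replicate 1 stood apart. Its mitochondrial and nuclear ribosomal RNA genes mt-Rnr1, mt-Rnr2 and Gm26917 took 31.1% of its summed values, against 16.6% and 14.9% in Th0 replicates 2 and 3 and 20.7% to 21.8% in the Th17 libraries. A chi-square of the reads between libraries of a group, divided by its degrees of freedom, was 22.7 and 24.6 between Th0 replicate 1 and the other Th0 libraries, 5.05 between those 2, and 2.72 to 4.37 among the Th17 libraries. On the first principal component, with 35.6% of the variance, it lay at -41.8 and the other 5 libraries between 3.09 and 15.6. The second component, with 31.2%, separated the Th17 libraries (14.5 to 18.3) from all Th0 libraries (-26.1 to -3.61). The main fit holds all 6 libraries, and values without Th0 replicate 1 are given beside it. All genes called in the main fit were also called without that library. Their direction could not turn, since none of them overlapped between the groups.

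The cancer cell identity of the libraries was read from keratins, and the remaining blood cells from their defining markers. Keratin and other carcinoma markers (6 listed, among them Krt8 and Krt18) summed to 5079 to 7164 normalized counts per library, while E-cadherin (Cdh1) and Epcam are not listed. Nearly all of each sum came from Krt8 and Krt18. Krt7, Krt19, Cldn4 and Cldn7 stood at 20 or below in every library. T cell markers (11 listed, 5 of them with a mean of at least 10) summed to 200, 119 and 109 with Th0 and to 93, 76 and 104 with Th17. These sums did not overlap either, though the lowest with Th0 (109) and the highest with Th17 (104) lay close. Cd3e is not listed, and the CD3 chain gene Cd3g stood at 8, 5 and 2 with Th0 and at 0, 1 and 0 with Th17. B cell and plasma cell markers (7 listed) summed to 339, 152 and 103 with Th0 and to 39, 36 and 40 with Th17, so that these groups did not overlap. Myeloid markers (6 listed) summed to 347, 178 and 202 with Th0 and to 169, 176 and 196 with Th17, and these groups did overlap. Fewer cells of a type and less RNA per cell cannot be told apart in such bulk libraries.

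**Figure D1:**
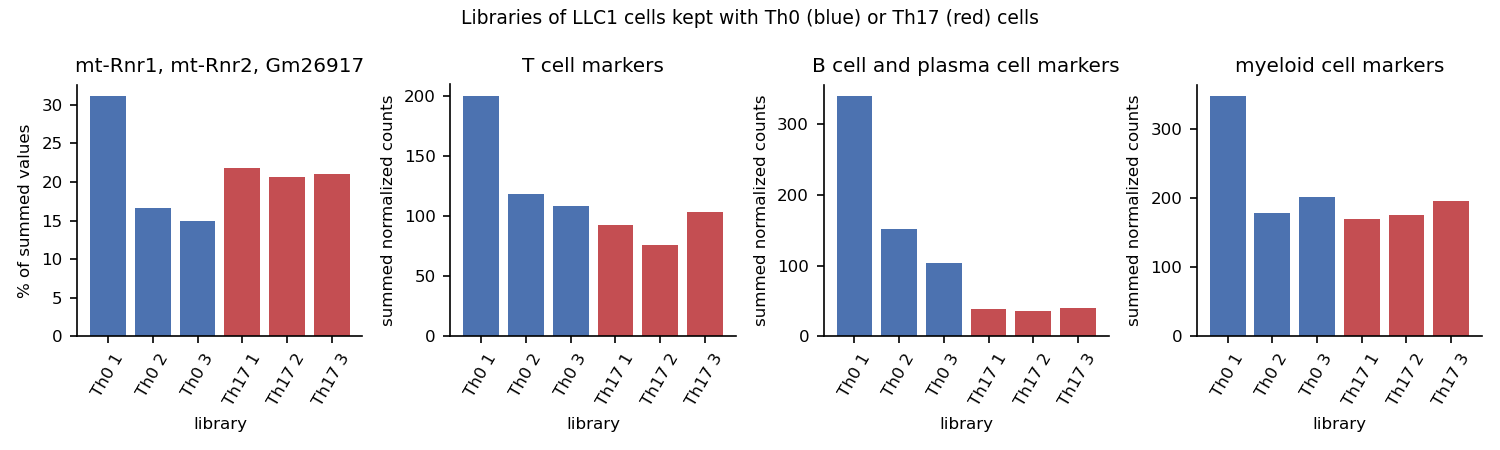
Share of summed values on the 3 ribosomal RNA genes mt-Rnr1, mt-Rnr2 and Gm26917 (left, in %) and summed normalized counts of T cell, B and plasma cell, and myeloid markers in each of the 6 libraries; each bar is 1 library, blue for Th0 and red for Th17. Th0 replicate 1 is the highest bar in all 4 panels, and the B and plasma cell sum is 103 or more in every Th0 library and 40 or less in every Th17 library.

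With all 6 libraries, 226 of 14342 genes (1.58%) differed between Th17 and Th0 at an adjusted p under 0.05 in limma-trend (two-sided, Benjamini-Hochberg over all genes tested). Of these, 170 (1.19%) were higher and 56 (0.39%) lower with Th17. The differences were small. The median of the higher genes was 0.57 on the log2(value + 1) scale (1.49-fold), that of the lower genes -0.51 (1.43-fold lower), and that of all genes tested -0.0046. At an unadjusted p under 0.05 there were 2623 of the 14342 genes. Log2 differences of at least 1 were reached by 12 higher genes, and 11 lower genes lay at -1 or below. Protein-coding genes made up 161 of the higher and 47 of the lower genes.

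Without Th0 replicate 1, 2328 genes (16.2%) were called, 963 higher (6.71%) and 1365 lower (9.52%). Besides the 226 genes of the first fit, 2102 were called only there (793 higher and 1309 lower). The share of calls that were higher thus went from 75.2% to 41.4%. It was 46.8% when libraries were weighted by their spread and 85.6% when every library was scaled to the same total. The 3 Th17 values lay entirely above the 3 Th0 values in 1835 genes (12.8%) and entirely below in 1522 (10.6%), and all 226 called genes were among these 3357 (23.4%). Of the 226 genes, 194 were also called without Th0 replicate 2, 62 without Th0 replicate 3, 14 without Th17 replicate 1, 43 without Th17 replicate 2 and 16 without Th17 replicate 3. The genes called with every one of these libraries left out and in all other alternatives were 11: Glmp, Scrn2, Ywhaz, Ly6e, Psat1, Fkbp1a, Alg3, Agpat1, Alg2, Myadm and Ighm.

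**Figure D2:**
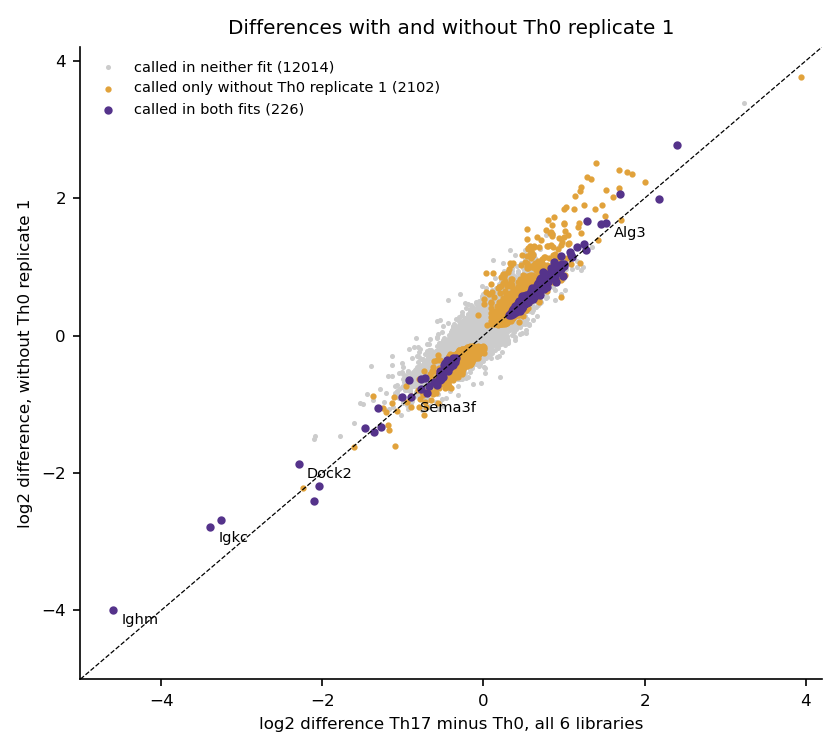
Log2 difference of Th17 minus Th0 for 14342 genes with all 6 libraries (x axis) and without Th0 replicate 1 (y axis); each point is 1 gene, purple where called in both fits (226), orange where called only without Th0 replicate 1 (2102), grey where called in neither, and the dashed line marks equal values. All purple points lie in the quadrants where both fits have the same sign. This was fixed, since none of these genes overlapped between the groups.

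The largest rise among well measured genes was that of Alg3 (ENSMUSG00000033809, GRCm38 chr16:20605451-20610768, minus strand), which encodes a mannosyltransferase that extends the lipid-linked precursor of N-glycans in the endoplasmic reticulum. Its normalized counts were 72, 61 and 51 with Th0 and 206, 152 and 174 with Th17. Every Th17 library was above 2 times the highest Th0 library. The log2 difference was 1.52 (SE 0.17, n = 3 and 3, limma adjusted p = 0.00291) and 1.64 without Th0 replicate 1.

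Ly6e (chr15) encodes a GPI-anchored surface protein of the Ly6 family that is known as an interferon-inducible gene and as a stem and tumour cell marker. It stood at 2598, 2590 and 1892 normalized counts with Th0 and at 6582, 5355 and 4889 with Th17, with no overlap. The log2 difference was 1.25 (SE 0.14, limma adjusted p = 0.00291) and 1.33 without Th0 replicate 1. A pair of further Ly6 genes that lie in the same cluster on chr15, chosen here after their values were seen, were also called: Ly6a (Sca-1) stood at 110, 122 and 106 with Th0 and 230, 203 and 216 with Th17, and Ly6c1 at 66, 83 and 64 against 156, 114 and 127. Whether reads were shared between these family members was not tested, so the split between them is uncertain.

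Tusc2, a gene of the tumour suppressor region of human lung cancers, stood at 48, 52 and 51 with Th0 and at 124, 111 and 135 with Th17 (log2 difference 1.27, SE 0.15, limma adjusted p = 0.00368, and 1.24 without Th0 replicate 1). The Th0 values lay within 4 normalized counts of each other, and all Th17 values were above 2 times the highest of them. Tusc2 overlaps the antisense gene Gm9917, and the sources used here do not say if reads were counted by strand. Gm9917 itself had a log2 difference of -0.15 (limma adjusted p = 0.692).

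Agpat1 and Myadm had the smallest adjusted p of all genes (0.00144 in limma for both). Agpat1, which makes phosphatidic acid for the synthesis of phospholipids and triglycerides, stood at 590, 622 and 544 with Th0 and at 1190, 1134 and 1108 with Th17, a log2 difference of 0.97 (SE 0.08) in both fits. Myadm, a membrane protein of lipid rafts, stood at 1033, 965 and 908 with Th0 and at 2010, 1792 and 1791 with Th17, a log2 difference of 0.94, and 0.99 without Th0 replicate 1. In both genes the libraries of a group differed far less from each other than from the other group. Among the other leading genes were Trappc1, a subunit of the complex that tethers vesicles between endoplasmic reticulum and Golgi (197, 157 and 140 against 419, 315 and 369), and Ywhaz, the 14-3-3 zeta adaptor of phosphorylated proteins (2103, 2164 and 1856 against 4003, 3520 and 3365). Psat1, an enzyme of serine synthesis, stood at 1954, 2195 and 1984 against 3557, 3423 and 3742. Fkbp1a, the prolyl isomerase that binds FK506 and the type I TGF-beta receptor, stood at 949, 1000 and 1067 against 1748, 1601 and 1648. As in all 226 called genes, no pair of these groups overlapped. The log2 differences of Trappc1, Ywhaz, Psat1 and Fkbp1a were 1.16, 0.83, 0.81 and 0.73, and 1.29, 0.85, 0.77 and 0.69 without Th0 replicate 1.

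**Figure D3:**
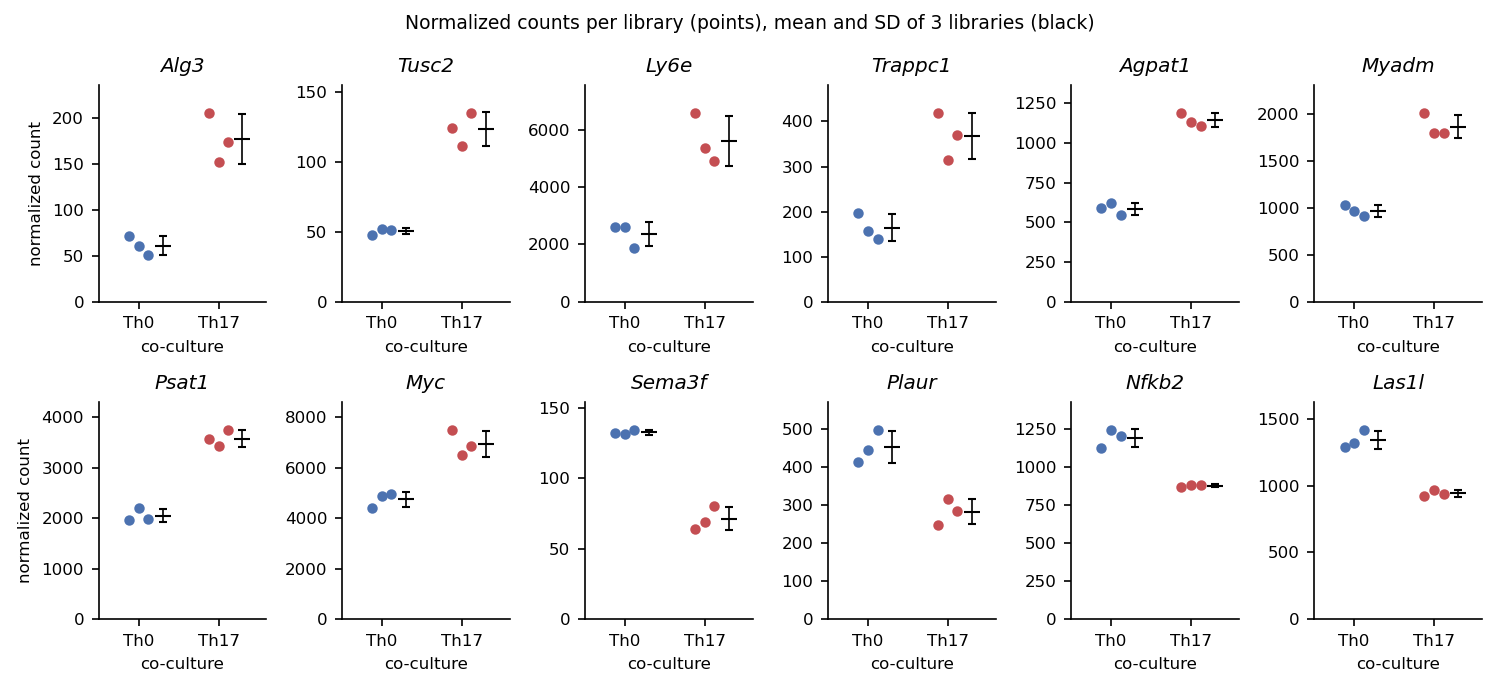
Normalized counts of 8 higher and 4 lower genes in each library (points, blue for Th0 and red for Th17, each axis starting at 0), with the mean and SD of 3 libraries in black. In all 12 genes the 3 Th17 values lie entirely above or entirely below the 3 Th0 values, as in all 226 called genes.

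The RefSeq promoters (250 bases before the annotated start, GRCm38.p6) are printed for 3 of these higher genes and for Plaur, a lower gene described further on, as examples whose values are described here and which differ in the short motifs they hold. They were chosen after the values were seen. Capitals mark matches on either strand to the 11 letter strings searched: CCAAT, AP-1 TGANTCA, SP GGGCGG, E-box CACGTG, CRE TGACGTCA, ETS CCGGAAG, C/EBP-ATF TGATGNAAT, and single strings for NRF1 and YY1 and a pair of strings for NF-kB, all of 10 letters. In the Alg3 promoter the CCAAT and AP-1 matches share 1 base. The promoter table holds Agpat1 with a second start, and the first is printed.
Alg3, chr16:20610762-20611011, minus strand: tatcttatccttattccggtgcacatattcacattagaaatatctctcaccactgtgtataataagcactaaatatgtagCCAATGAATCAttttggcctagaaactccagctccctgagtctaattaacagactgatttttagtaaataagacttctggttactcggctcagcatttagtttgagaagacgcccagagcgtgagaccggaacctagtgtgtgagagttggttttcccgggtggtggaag
Tusc2, chr9:107563005-107563254, plus strand: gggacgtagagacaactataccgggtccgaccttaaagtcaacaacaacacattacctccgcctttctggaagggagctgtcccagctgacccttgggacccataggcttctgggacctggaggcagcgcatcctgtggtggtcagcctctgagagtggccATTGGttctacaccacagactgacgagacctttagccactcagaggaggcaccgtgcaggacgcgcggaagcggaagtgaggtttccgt
Agpat1, chr17:34605611-34605860, plus strand: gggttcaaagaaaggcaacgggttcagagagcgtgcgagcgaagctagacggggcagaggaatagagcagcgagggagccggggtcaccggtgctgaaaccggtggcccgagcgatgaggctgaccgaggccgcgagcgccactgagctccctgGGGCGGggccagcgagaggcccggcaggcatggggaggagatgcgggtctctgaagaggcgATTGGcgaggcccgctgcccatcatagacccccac
Plaur, chr7:24462233-24462482, plus strand: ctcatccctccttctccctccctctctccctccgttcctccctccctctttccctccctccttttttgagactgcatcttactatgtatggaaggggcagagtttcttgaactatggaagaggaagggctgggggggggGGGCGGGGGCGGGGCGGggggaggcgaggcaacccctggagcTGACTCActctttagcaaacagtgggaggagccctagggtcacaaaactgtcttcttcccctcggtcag
CCAAT, the site that NF-Y binds, stood in 45.3% of the 128 higher genes with a promoter in the table, in 30.3% of the 33 lower ones, in 40.5% of the tested genes and in 33.8% of all 32851 promoters. AP-1 matches stood in 7.81% of the higher, 15.2% of the lower (5 genes), 5.37% of the tested genes and 6.75% of all promoters. SP matches stood in 74.2% of the higher, 66.7% of the lower, 64.0% of the tested genes and 32.7% of all promoters. Of the pair of NF-kB strings, 1 stood in 1 higher gene (0.78%) and 1 lower gene (3.03%). The same string stood in 0.198% of the tested genes and 0.14% of all promoters. Myadm, a higher gene, held this string before some of its annotated starts. The other NF-kB string stood in no called gene with a promoter. A match is a description of letters and not of a bound site.

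Genes of N-glycan synthesis formed the list with Alg3. Like the lists that follow, it was drawn up with earlier results of these data known, and it got no test of its own. Of 37 tested members, 4 rose and none fell (1.19% and 0.39% over all genes), and their median log2 difference was 0.12, with 28 members above 0. Alg2, the mannosyltransferase that acts before Alg3, stood at 760, 819 and 656 with Th0 and 1317, 1289 and 1295 with Th17 (log2 difference 0.81). Dad1, a subunit of the oligosaccharyltransferase that moves the glycan onto proteins, rose by 0.66, and Ganab, the glucosidase II subunit that trims it, by 0.53. Dpagt1, the first enzyme of the pathway, stood at 163, 150 and 169 against 237, 214 and 225, without overlap, and did not pass the test (limma adjusted p = 0.0506). The list had 10 higher and 4 lower members (6.71% and 9.52% over all genes) and a median of 0.10 without Th0 replicate 1.

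Lysosomal genes had 3 of 41 tested members higher and none lower (1.19% and 0.39% over all genes), with a median log2 difference of 0.16 and 34 members above 0. Psap, the precursor of the saposins that help break down sphingolipids, stood at 1442, 1466 and 1365 with Th0 and 2119, 2029 and 2003 with Th17 (log2 difference 0.53, SE 0.07, limma adjusted p = 0.00665). The aspartic protease gene Ctsd rose by 0.48, from 345, 343 and 337 to 481, 467 and 479. Npc2, a lysosomal cholesterol carrier, stood at 351, 373 and 339 against 493, 433 and 477 (limma adjusted p = 0.053). Glmp, a lysosomal membrane glycoprotein that was on no list, was among the 11 genes called in every alternative and stood at 310, 288 and 254 against 550, 503 and 557. Leaving out Th0 replicate 1 gave 8 higher members and 1 lower member (6.71% and 9.52% over all genes) and a median of 0.13.

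Cholesterol and fatty acid synthesis had 4 of 32 tested members higher and none lower (1.19% and 0.39% over all genes), with a median log2 difference of 0.18. These were Dhcr7 and Sc5d, which act at the end of the cholesterol pathway, Msmo1, which removes methyl groups from a sterol precursor, and Scd2, a desaturase that makes monounsaturated fatty acids. Their log2 differences were 0.58, 0.43, 0.48 and 0.48. Scd2 stood at 7104, 8110 and 7604 with Th0 and at 10981, 10174 and 10655 with Th17. Dhcr7 stood at 205, 180 and 176 against 274, 268 and 300, again without overlap. Without Th0 replicate 1, 12 members were higher and 1 lower (6.71% and 9.52% over all genes), and the median was 0.08. Among acyltransferases and other phospholipid enzymes (22 tested) Agpat1 was the member called. Agpat5, a mitochondrial relative, stood at 277, 295 and 264 against 343, 330 and 321 (log2 difference 0.25, limma adjusted p = 0.18).

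Of 20 tested genes of the type I interferon response, 3 rose and none fell (1.19% and 0.39% over all genes), and the list's median was -0.01. Without Th0 replicate 1, 3 were higher and 1 lower (6.71% and 9.52% over all genes), and the median was -0.05. The 3 called with all 6 libraries were Ly6e, Ifitm3 and Ifitm2, the last 2 encoding membrane proteins that block the entry of viruses. Ifitm3 stood at 520, 519 and 448 with Th0 and at 838, 720 and 678 with Th17 (log2 difference 0.59, limma adjusted p = 0.0175, and 0.62 without Th0 replicate 1), and Ifitm2 at 132, 165 and 105 against 218, 211 and 219 (0.71 in both fits, limma adjusted p = 0.0493). Ifit1, Isg15, Mx1, Mx2, Oas1a, Oas2 and Rsad2, genes that define this response, are not listed in the table. Irf7, its amplifying transcription factor, stood at 27, 13 and 14 with Th0 and at 4, 14 and 10 with Th17, so that the groups overlapped. In the interferon-gamma list none of 13 tested members was called by limma with all 6 libraries, and its median was 0.07. At an unadjusted p under 0.05 it had 2 members, beside 2623 of 14342 over all genes. Without Th0 replicate 1, 1 was higher and none lower.

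Myc, the transcription factor of growth and ribosome production, stood at 4410, 4869 and 4964 normalized counts with Th0 and at 7487, 6486 and 6848 with Th17. All Th17 values were above all Th0 values, with a log2 difference of 0.55 (SE 0.09, limma adjusted p = 0.0147) and 0.49 without Th0 replicate 1. It was the 1 called member in the STAT3 target list (15 tested) and in the immediate early list (23 tested) with all 6 libraries, where no member of either was called lower. Without Th0 replicate 1 the STAT3 list had 3 higher members and 1 lower, and the immediate early list 2 higher and 1 lower. In the ATF4 and amino acid list 2 of 24 tested members rose: Psat1, and Slc7a5, a transporter of large neutral amino acids (1802, 1823 and 1867 against 2312, 2279 and 2252, log2 difference 0.32, limma adjusted p = 0.0457). Asns (asparagine synthetase) stood at 1691, 1994 and 1903 against 2250, 2096 and 2372, and Slc7a11, the cystine transporter, at 278, 336 and 302 against 392, 369 and 386. Neither passed the test with all 6 libraries (limma adjusted p = 0.141 and 0.115). The ATF4 and amino acid list had 5 higher and 2 lower members without Th0 replicate 1. None of 20 aminoacyl-tRNA synthetases was called by limma (7 at an unadjusted p under 0.05, beside 2623 of 14342 over all genes). In the unfolded protein response (26 tested) Herpud1, which takes part in the disposal of misfolded proteins, was the 1 called member, higher by 0.50. These counts stand beside 1.19% higher and 0.39% lower over all genes with all 6 libraries, and 6.71% and 9.52% without Th0 replicate 1.

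Glycolysis and hypoxia genes had 4 of 32 tested members higher and none lower (1.19% and 0.39% over all genes), with a median of 0.01. Leaving out Th0 replicate 1 gave 4 higher and 8 lower members (6.71% and 9.52% over all genes) and a median of -0.02. The glycolytic enzyme Tpi1 stood at 2703, 2894 and 2586 with Th0 and at 4114, 3624 and 4053 with Th17 (log2 difference 0.53, and 0.52 without Th0 replicate 1). Gapdh, which acts in the next step and often serves as a reference gene, stood at 2698, 2897 and 2656 against 3722, 3444 and 3867 (0.42 and 0.41). The other 2 were Egln3, an oxygen-sensing prolyl hydroxylase (0.49), and P4ha1, a collagen prolyl hydroxylase (0.43). Bnip3, a mitophagy receptor and hypoxia target, lay on the other side at 226, 285 and 251 against 191, 150 and 175 and did not pass the test (limma adjusted p = 0.0588). Processed copies of Tpi1 and Gapdh exist in the mouse genome, so some reads may be shared with them.

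Ribosomal protein genes had 3 of 33 tested small subunit members and 3 of 48 large subunit members higher, and none lower (1.19% and 0.39% over all genes), with medians of 0.19 and 0.04. Leaving out Th0 replicate 1 gave 10 higher and 4 lower small subunit members and 9 higher and 9 lower large subunit members (6.71% and 9.52% over all genes), with medians of 0.16 and -0.04. The members called with all 6 libraries were Rps26, Rps27l, Rps21, Rpl37a, Rpl27 and Rpl39. Rps26 stood at 1272, 1196 and 1113 with Th0 and at 3135, 2085 and 1947 with Th17 (log2 difference 0.97, limma adjusted p = 0.011, and 1.02 without Th0 replicate 1), the largest of them, with Th17 replicate 1 highest. The others had log2 differences of 0.44 to 0.66. Ribosomal proteins have many processed copies that can share reads. Rny3, a Y RNA that binds the Ro protein and serves in RNA quality control, stood at 3360, 1966 and 1175 with Th0 and at 4973, 4398 and 5148 with Th17 (log2 difference 1.29, limma adjusted p = 0.0496, and 1.67 without Th0 replicate 1). The Th0 values alone spread by more than 2 times.

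Cell cycle, chromatin and respiratory genes had few calls with all 6 libraries. Leaving out Th0 replicate 1 gave 2 higher and 8 lower G2/M genes, 4 and 7 histone genes, and 6 and 8 nuclear genes of complexes II to V, beside 6.71% and 9.52% over all genes. Bub1, a kinase of the mitotic spindle checkpoint, was the 1 called member of 32 tested G2/M genes, with 870, 1123 and 897 normalized counts with Th0 and 1407, 1313 and 1268 with Th17 (log2 difference 0.47, limma adjusted p = 0.0464). Of 31 histone genes on the list, the replication-independent H3f3a was the 1 called, higher by 0.73, at 212, 252 and 176 against 379, 320 and 359. Of histone genes outside the list, H2afj was lower (-0.54), and Hist1h2bg (0.93) and Hist1h4h (0.62), chosen after their values were seen, were higher. The linker histone gene Hist1h1e lay on the other side, at 8105, 10029 and 9919 against 7263, 6326 and 6041, without overlap and just outside the threshold (limma adjusted p = 0.0506). Cox7a2, a subunit of cytochrome c oxidase, was the 1 called member of 39 nuclear genes of complexes II to V, at 177, 158 and 192 against 340, 258 and 273 (0.72). Limma called none of 20 p53 targets, 18 MHC class I and peptide loading genes, 12 heat shock genes, 55 mitochondrial ribosomal proteins and 24 glutathione and antioxidant genes. At an unadjusted p under 0.05 these lists had 5, 4, 0, 14 and 5 members, beside 2623 of 14342 over all genes. Their medians lay between -0.07 and 0.05. Those values are from all 6 libraries. Without Th0 replicate 1 the same lists had 1, 1, 0, 5 and 2 higher members and 4, 4, 2, 10 and 1 lower ones.

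**Figure D4:**
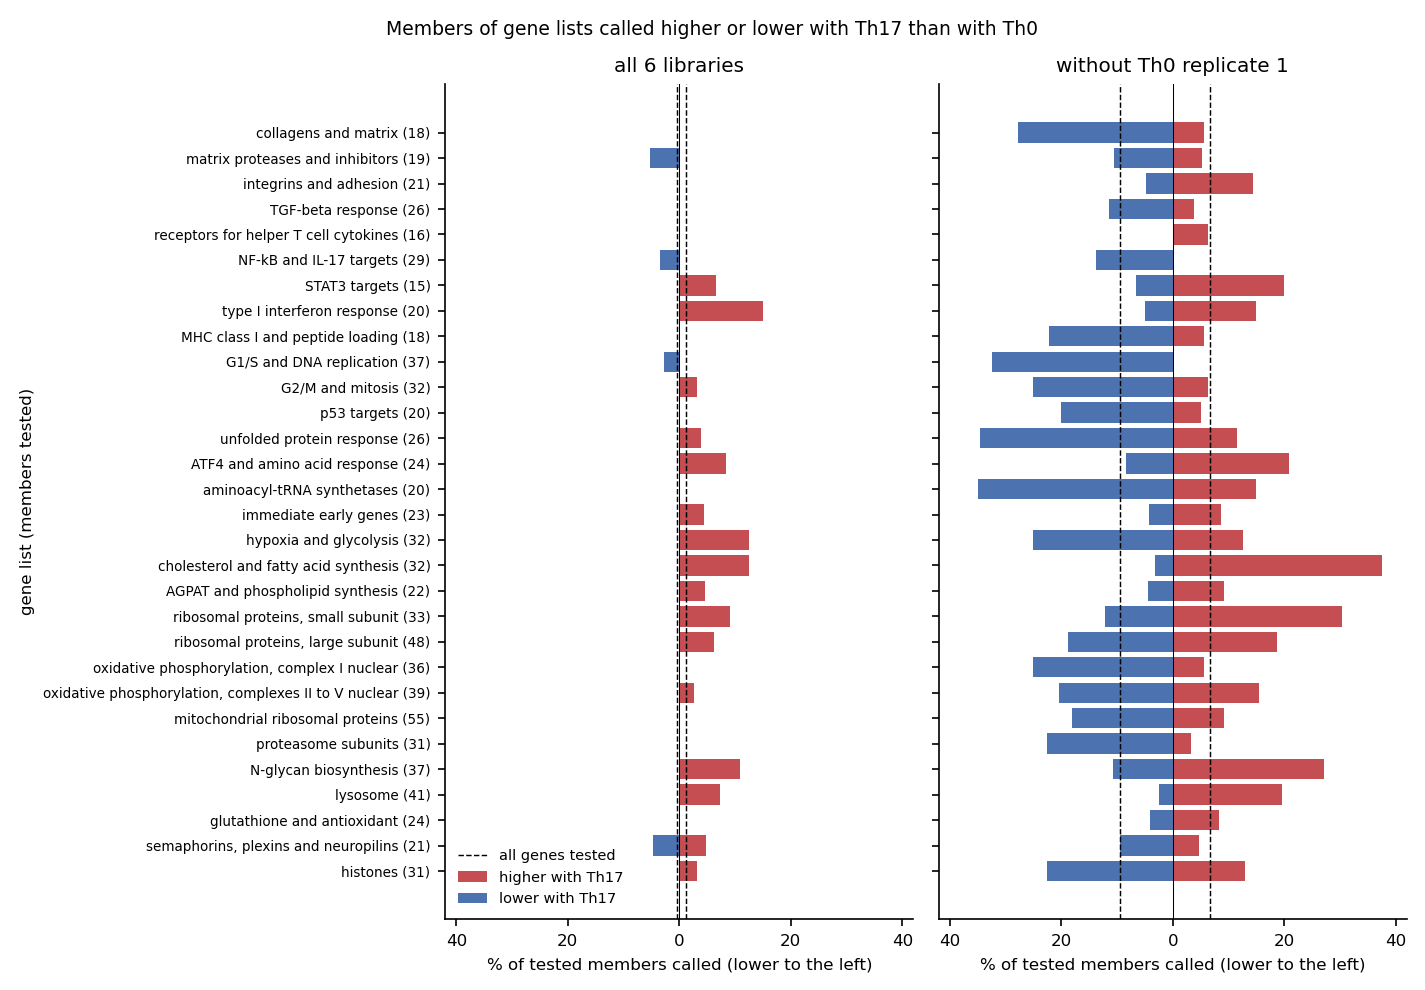
Share of tested members of the 30 gene lists with at least 15 tested members (number tested in brackets) called higher (red, to the right) or lower (blue, to the left) with Th17, with all 6 libraries on the left and without Th0 replicate 1 on the right; the dashed lines mark the shares over all genes tested (1.19% and 0.39% on the left, 6.71% and 9.52% on the right). With all 6 libraries none of these 30 lists has more than 1 lower member, and without Th0 replicate 1 most lists have bars on both sides.

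The largest falls were those of immunoglobulin genes, which are defining genes of B cells and plasma cells. Ighm, the constant region of the IgM heavy chain, stood at 196, 63 and 49 with Th0 and at 4, 2 and 2 with Th17. Every Th0 library was over 10 times the highest Th17 library, and the log2 difference was -4.59 (SE 0.48, limma adjusted p = 0.00291) and -3.99 without Th0 replicate 1. Igkc, the kappa light chain constant region, stood at 47, 15 and 11 against 1, 0 and 3 (-3.39, limma adjusted p = 0.0338, and -2.79 without Th0 replicate 1). The heavy chain segment Ighv11-2 stood at 53, 19 and 12 against 3, 0 and 3, and Dock2, a guanine nucleotide exchange factor of blood cells, at 48, 26 and 14 against 5, 6 and 3. These last 2 lie below the mean of 50 used for named genes and were chosen after their values were seen.

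The sum of B cell and plasma cell markers given above includes Ighm and Igkc. Of 5 tested B and plasma cell genes 2 were lower (0.39% over all genes), with a median log2 difference of -1.12. These 2 were Ighm and Igkc themselves, so the count adds nothing to them. Ms4a1 (CD20) was listed at 17, 10 and 8 with Th0 and at 2, 1 and 1 with Th17, and Cd79a stood at 18, 17 and 13 against 5, 6 and 10 (limma adjusted p = 0.152). Pax5, the B lineage transcription factor, stood at 44, 39 and 20 against 26, 24 and 22 and overlapped. Blnk, the other tested member, stood at 14, 14 and 14 against 16, 16 and 9 and overlapped as well (log2 difference -0.07, limma adjusted p = 0.935). The pan-leukocyte gene Ptprc (CD45) stood at 52, 25 and 7 with Th0 and at 8, 7 and 1 with Th17, a log2 difference of -2.09 that did not pass the test (limma adjusted p = 0.166). In all of these genes except Blnk, Th0 replicate 1 was the highest library. The part of remaining blood cells in the fall of Ighm, Igkc and Dock2 was not tested.

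Lower as well was Sema3f (chr9:107681500-107710475), a secreted semaphorin that acts through neuropilin 2 and plexins to repel axons and vessels. It stood at 132, 131 and 134 with Th0 and at 64, 69 and 80 with Th17. The Th0 values were nearly equal, and the Th17 libraries held about 1.86-fold less on average (log2 difference -0.89, SE 0.14, limma adjusted p = 0.011, and -0.90 without Th0 replicate 1). Its relative Sema5a, a membrane semaphorin, went the other way, from 322, 371 and 357 to 467, 485 and 469 (0.44, limma adjusted p = 0.0343). The remaining 19 of 21 tested semaphorins, plexins and neuropilins were not called with all 6 libraries. Plxnb2, a plexin of the named genes, stood at 4564, 4914 and 5162 against 3958, 4081 and 4131, without overlap (limma adjusted p = 0.12). It was called lower without Th0 replicate 1 (log2 difference -0.31, limma adjusted p = 0.000951).

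Plaur, the receptor of urokinase that focuses plasminogen activation on the cell surface and is a known NF-kB and AP-1 target, stood at 413, 445 and 497 with Th0 and at 248, 315 and 284 with Th17. The highest Th17 value lay below the lowest Th0 value, and the log2 difference was -0.68 (SE 0.11, limma adjusted p = 0.015) and -0.74 without Th0 replicate 1. It was the 1 called gene of 19 tested matrix proteases and inhibitors, whose median was 0.15. Plat (tissue plasminogen activator) stood at 370, 417 and 416 with Th0 and at 463, 467 and 454 with Th17, and Timp2, an inhibitor of metalloproteinases, at 2716, 3196 and 2984 against 3699, 3482 and 3573. Both groups of values were separate, and neither gene passed the test with all 6 libraries (limma adjusted p = 0.236 and 0.119). Timp2 was called higher without Th0 replicate 1 (log2 difference 0.21, limma adjusted p = 0.0143). Mmp3 and Mmp13 overlapped between the groups (limma adjusted p = 0.67 and 0.674), and Mmp9 is not listed.

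Among the other lower genes, a pair was chosen after its values were seen: Slc4a5, a bicarbonate transporter, stood at 97, 58 and 58 with Th0 and at 29, 28 and 25 with Th17 (log2 difference -1.30, limma adjusted p = 0.0215, and -1.06 without Th0 replicate 1), and the unnamed protein-coding gene Gm21887 at 188, 146 and 148 against 72, 76 and 88 (-1.02, limma adjusted p = 0.00828). Their groups did not overlap, as in all 226 called genes. The lower genes of the naming rule that are described next had smaller differences. Las1l, an endonuclease of ribosomal RNA processing, stood at 1289, 1324 and 1418 with Th0 and at 924, 972 and 937 with Th17 (log2 difference -0.51, limma adjusted p = 0.00773). Banp, a nuclear matrix protein that binds methylation-sensitive promoter motifs, stood at 934, 923 and 891 against 611, 668 and 620 (-0.53, limma adjusted p = 0.00699). Zbtb10, a zinc finger repressor, stood at 1000, 729 and 883 against 537, 487 and 547 (-0.72). Incenp, a subunit of the chromosomal passenger complex, fell by 0.54, and Ddx39, an RNA helicase of mRNA export, by 0.58. Further genes of ribosome biogenesis or tRNA modification, chosen after their values were seen, were also lower: Ppan fell by 0.41, Tsr3 by 0.52 and Wdr4 by 0.52. Lig1, the DNA ligase of replication, fell by 0.44 (limma adjusted p = 0.0445) as the 1 called member of 37 tested G1/S genes, whose median was -0.09. Zswim9, which overlaps Lig1 on the opposite strand, was lower by a like amount (-0.43, limma adjusted p = 0.0394), and the 2 cannot be told apart if counting ignored the strand.

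The receptor of IL-17 was measured in all libraries, and neither chain passed the test. Il17ra stood at 322, 307 and 360 normalized counts with Th0 and at 273, 291 and 295 with Th17 (log2 difference -0.20, SE 0.10, limma adjusted p = 0.301). Il17rc stood at 109, 109 and 96 against 92, 111 and 107 (-0.02, SE 0.14, limma adjusted p = 0.958). The Il17ra values did not overlap, those of Il17rc did. The cytokine genes Il17a, Ifng and Il9 are not listed. None of 16 tested receptors for helper T cell cytokines was called by limma with all 6 libraries. At an unadjusted p under 0.05 there were 4, beside 2623 of 14342 over all genes. Without Th0 replicate 1, 1 was higher and none lower (6.71% and 9.52% over all genes).

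Of 29 tested NF-kB and IL-17 targets, 1 fell and none rose, and the median was -0.05. The fallen gene was Nfkb2, which encodes the p100 precursor of the p52 subunit and is itself an NF-kB target. It stood at 1126, 1243 and 1206 with Th0 and at 866, 884 and 885 with Th17 (log2 difference -0.44, SE 0.07, limma adjusted p = 0.015, and -0.48 without Th0 replicate 1). Relb, which pairs with p52, stood at 114, 106 and 103 against 80, 71 and 73, without overlap, and did not pass with all 6 libraries (limma adjusted p = 0.0868). Nfkbia, the rapidly induced inhibitor, stood at 331, 331 and 329 against 397, 312 and 353, with overlap. The chemokine gene Ccl2 stood at 199, 236 and 169 against 205, 204 and 172, with overlap, and Cxcl1 at 85, 120 and 102 against 74, 75 and 78, without. Neither was called with all 6 libraries (limma adjusted p = 0.893 and 0.198). Cxcl1 was called lower without Th0 replicate 1 (log2 difference -0.54, limma adjusted p = 0.0225). Lcn2, Il6, Cxcl2 and Ccl20, textbook IL-17 targets, are not listed. Leaving out Th0 replicate 1 gave 4 lower members and no higher one, beside 9.52% lower and 6.71% higher over all genes.

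No EMT transcription factor was called by limma with all 6 libraries, and the median of the 9 tested was 0.08. At an unadjusted p under 0.05 there were 3 of 9, beside 2623 of 14342 over all genes. Snai1 (Snail) stood at 63, 43 and 43 with Th0 and at 88, 68 and 73 with Th17. All Th17 values lay above all Th0 values, and the log2 difference was 0.62 (SE 0.20, limma adjusted p = 0.141). Without Th0 replicate 1 it was 0.81 with a limma adjusted p of 0.0076, in a range of 0.00334 to 0.43 over the alternatives. Snai2 (Slug) stood at 390, 558 and 432 against 548, 521 and 564 and overlapped. Twist1 stood at 877, 1341 and 1243 with Th0 and at 904, 935 and 950 with Th17, so that Th0 replicate 1 lay with the Th17 libraries. Its log2 difference was -0.29 (limma adjusted p = 0.286) with all 6 libraries. Without Th0 replicate 1 it was -0.47 (limma adjusted p = 0.000192, in a range of 0.000192 to 0.57 over the alternatives). Zeb1 stood at 2270, 2483 and 2514 against 1995, 2128 and 2051, without overlap (-0.23, limma adjusted p = 0.14, and -0.28 without Th0 replicate 1). Without that library 2 members of the list were higher and 3 lower, beside 6.71% and 9.52% over all genes.

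Mesenchymal markers (12 tested) had no member called by limma with all 6 libraries and a median of 0.09. At an unadjusted p under 0.05 they had 4 members, beside 2623 of 14342 over all genes. Without Th0 replicate 1, 1 was higher and none lower. Vimentin (Vim), the intermediate filament of mesenchymal cells, stood at 57619, 83176 and 80982 with Th0 and at 79383, 77698 and 78041 with Th17. Th0 replicate 1 was the lowest library and the other 2 Th0 libraries lay above all Th17 libraries, so that the log2 difference was 0.10 with it and -0.07 without it (SE 0.20 with all 6). N-cadherin (Cdh2) had a log2 difference of -0.04 (SE 0.14), fibronectin (Fn1) of 0.11 (SE 0.11), and Thbs1 of 0.01 (SE 0.10). The sign of Cdh2 turned without Th0 replicate 2 or Th17 replicate 2, and that of Thbs1 without Th0 replicate 1, Th17 replicate 2 or Th17 replicate 3. The keratin genes Krt8 and Krt18 stood at 1736, 2524 and 2342 and at 3307, 4597 and 4758 with Th0, and at 1859, 1842 and 1873 and at 4083, 3976 and 4058 with Th17. In both, Th0 replicate 1 was the lowest library and Th0 replicates 2 or 3 the highest. Their log2 differences were -0.23 (limma adjusted p = 0.361) and -0.04 (limma adjusted p = 0.887), and -0.39 and -0.21 without Th0 replicate 1, where both were called lower. Of 9 tested epithelial markers none was called by limma with all 6 libraries. At an unadjusted p under 0.05 there were 2, beside 2623 of 14342 over all genes. Without Th0 replicate 1, 2 were higher and 3 lower, beside 6.71% and 9.52% over all genes.

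Collagens and other matrix genes (18 tested) had no member called by limma with all 6 libraries and a median of -0.01. At an unadjusted p under 0.05 they had 6 members, beside 2623 of 14342 over all genes. Without Th0 replicate 1, 1 was higher and 5 were lower (6.71% and 9.52% over all genes), with a median of 0.01. Col3a1, a fibrillar collagen, stood at 20532, 19361 and 19935 with Th0 and at 17590, 17368 and 17181 with Th17 (log2 difference -0.20, limma adjusted p = 0.34). Its groups did not overlap, and without Th0 replicate 1 it was called lower (log2 difference -0.18, limma adjusted p = 0.028). Col1a1 stood at 19, 21 and 16 against 12, 13 and 14 (limma adjusted p = 0.408). With all 6 libraries, none of 21 integrins and adhesion genes and none of 26 TGF-beta response genes was called by limma. Their medians were 0.11 and 0.03. At an unadjusted p under 0.05 they had 9 and 4 members, beside 2623 of 14342 over all genes. Leaving out Th0 replicate 1 gave 3 higher and 1 lower in the first list and 1 higher and 3 lower in the second.

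**Figure D5:**
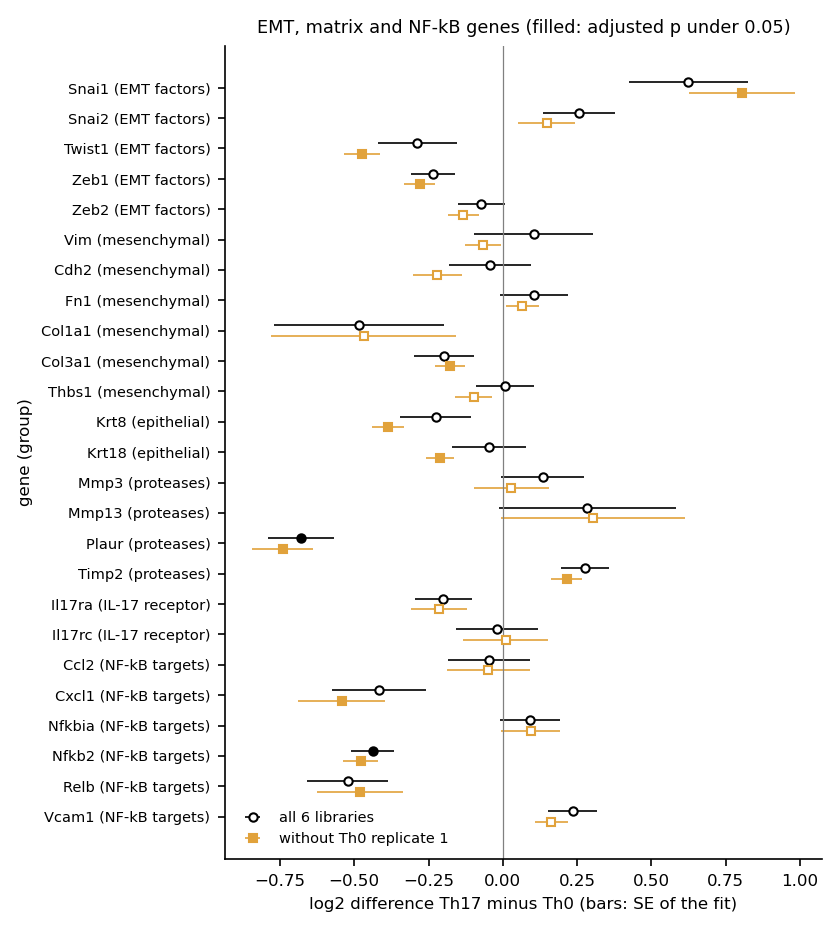
Log2 difference of Th17 minus Th0 with its SE for 25 genes of EMT, matrix, proteases, the IL-17 receptor and NF-kB, with all 6 libraries (black circles) and without Th0 replicate 1 (orange squares); filled symbols mark an adjusted p under 0.05. Plaur and Nfkb2 are filled in both, while Snai1, Twist1, Zeb1, Krt8 and Krt18 are, among others, filled only without Th0 replicate 1.

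Some gene groups had more calls, or their only ones, without Th0 replicate 1. All 7 tested protein genes of the mitochondrial genome were then higher, with a median log2 difference of 0.66, against none called by limma (and none at an unadjusted p under 0.05) and 0.25 with all 6 libraries. Of the same genome mt-Atp6, mt-Atp8, mt-Co2, mt-Co3 and mt-Nd4l are not listed. Cytochrome b (mt-Cytb) stood at 78629, 36710 and 22163 with Th0 and at 55519, 49519 and 47334 with Th17, so that Th0 replicate 1 lay above the Th17 libraries and the other 2 below. The ribosomal RNA genes of the same genome showed the same order, with mt-Rnr1 at 1017055, 391331 and 306034 against 721295, 530883 and 527745. For complex I subunits encoded in the nucleus (36 tested) 2 were higher and 9 lower without that library. For G1/S genes, where Lig1 was the 1 call with all 6 libraries, 12 of 37 were lower and none higher without Th0 replicate 1, with a median of -0.14. Among these, Mcm10, Mcm7 and Cdc45, which load and fire the replicative helicase, had log2 differences of -0.37, -0.35 and -0.39 without it, and of -0.29, -0.29 and -0.28 with all 6. Th17 values of all 3 lay below all Th0 values. For the unfolded protein response 3 were higher and 9 lower, for aminoacyl-tRNA synthetases 3 and 7, and for proteasome subunits 1 and 7. These counts stand beside 6.71% higher and 9.52% lower over all genes.

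Genes called in either direction had a higher median GC content and a higher median level than all genes tested. Among protein-coding genes the median GC content of the transcripts was 49.8% for all tested, 52.4% for the higher and 54.8% for the lower genes, and the median length 3456, 2911 and 3525 bases. In the same order the median level was 320, 613 and 824 normalized counts. With genes split by GC content into 10 bins, the median log2 difference went from 0.07 in the lowest bin to -0.08 in the highest. The part of GC content, length or level in the calls was not tested.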

How the data were processed

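Total RNA of LLC1 cells was measured in 6 libraries, per the labels' protocols made from 1 µg of RNA with a stranded SMARTer kit. Per the submitters' processing notes, the tools were STAR 2.4.0a, featureCounts 1.4.5-p1 of Subread and DESeq2 and the build was GRCm38 (mm10); no role or order is given. Whether counting used the strand is not given in the sources used here. The authors deposited whole-number scores per gene, which by their regular steps are rounded read numbers after division by a single factor for each library. Approximate reads are the value times that factor. They give counting error only. The table was normalized separately from the one with Th9, which was not used here. All sample columns were used.

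Tests were run with limma 3.58.1 in R 4.3.3 (limma-trend, group as the only term) on log2(value + 1), a scale that understates changes of low genes, for genes whose mean over the libraries reached 10. Adjusted p under 0.05 was a call. The test was checked on simulated counts. The 47 gene lists got no test of their own. Members and lists were chosen with earlier results of these data known. Named were, per direction, up to 12 genes with the largest called difference and 12 with the smallest adjusted p (mean of at least 50, no overlap, plain symbol), up to 5 members of each list with a call, and a fixed set of EMT, T cell and IL-17 genes, in all 155, of which some are not reported here. Of the table's IDs, 18454 of 18511 are in GENCODE M21. Promoters come from RefSeq (GRCm38.p6), where 128 of 170 higher and 33 of 56 lower genes matched. Deviations from the group means were hardly correlated between same-numbered libraries of the 2 groups (r of -0.055, -0.079 and 0.039). The labels do not say if equal numbers mark libraries set up together. With 3 libraries per group these correlations cannot settle it. Alternatives were the pseudocount, the filter, library weights, scaling, the replicate block and leaving out each library.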

Additional observations from a re-analysis of the deposited data

How the results depend on the processing

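Some of the 15 alternatives kept the counts of higher and lower genes within 1.5 times of 170 and 56. These were the changes of the pseudocount or the filter, TMM scaling, the replicate block and leaving out Th0 replicate 2. Array weights gave 1572 higher and 1789 lower genes, the same total per library 119 and 20, and the same total without mt-Rnr1, mt-Rnr2 and Gm26917 345 and 102. Leaving out 1 library each gave 11 to 963 higher and 2 to 1365 lower genes. The median of all genes moved by under 0.1 with each scaling. The replicate block, fitted although the labels state no pairing by number, gave 186 higher and 76 lower genes, and 193 of the 226 were also called. Th0 replicate 1 correlated best with Th17 replicate 2 and not with its own number. All 226 called genes kept their direction in the 15 alternatives. As none of them overlapped between the groups, only the scalings could have turned a sign.

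Among the named genes, signs turned only in 11 that were not called with all 6 libraries. With array weights the log2 difference was -0.0264 for Vim, 0.075 for Il17rc, 0.0705 for Ccl2 and -0.0633 for Thbs1. With the same total per library it was 0.005 for Cd4 and 0.0028 for Il17rc, and without the 3 RNA genes in that total 0.0051 for Cd4 and 0.0023 for Il17rc. Leaving out 1 library each gave log2 differences of -0.20 to 0.18 for Blnk, -0.21 to 0.0508 for Krt18, -0.30 to 0.30 for Cd4, -0.22 to 0.0936 for Cdh2, -0.0666 to 0.20 for Vim, -0.0809 to 0.0602 for Il17rc, -0.17 to 0.0736 for Ccl2, -0.10 to 0.0604 for Thbs1, -0.10 to 0.76 for mt-Rnr1, -0.25 to 0.35 for mt-Rnr2 and -0.11 to 0.47 for Gm26917. The causes were not tested. Depth was about 12719650 to 17505512 reads, and 4169 genes with a mean under 10 were not tested.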

Other observations

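Lars2, the mitochondrial leucyl-tRNA synthetase, stood at 417, 447 and 474 normalized counts with Th0 and at 557, 571 and 4547 with Th17, so that 1 Th17 library was far above the other 5 (log2 difference 1.34, limma adjusted p = 0.279). Rny1, a Y RNA like Rny3, stood at 1679, 977 and 819 with Th0 and at 2025, 1350 and 1616 with Th17, where the groups overlapped.

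Gene models without an assigned function were among the largest differences, chosen here after their values were seen. Gm17606 stood at 13, 6 and 5 with Th0 and at 48, 41 and 41 with Th17. Gm26035, annotated as a miscellaneous RNA, stood at 71, 124 and 149 with Th0 and at 30, 25 and 20 with Th17.

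Several higher genes on no list encode membrane or vesicle proteins, again chosen after their values were seen: Plp2 (log2 difference 0.91), Emd, which encodes emerin of the inner nuclear membrane (0.88), the volume-regulated channel subunits Lrrc8a (0.83) and Lrrc8b (0.55), and the proton pump accessory subunit Atp6ap1 (0.73). Ftl1, the ferritin light chain, was higher by 0.67 and Cdk4, a kinase of G1, by 0.41. Each passed the limma test with all 6 libraries, and none of their groups overlapped, as in all 226 called genes.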
